A study of Homo sapiens with 14 samples.

Results

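The DNA replication and S phase genes are 40 genes chosen by name and role, covering the machinery that copies the genome: the MCM helicase and its partners, origin licensing, polymerases and primase, the sliding clamp and its loader, flap removal and ligation, nucleotide supply, and G1/S control. All 40 had a probe set assigned to 1 gene symbol, all 40 passed the filter on dim values, and they were tested among 10349 genes. Expression was read on 14 Affymetrix arrays of HEK293 cells, a line from human embryonic kidney transformed with adenovirus DNA and grown here in RPMI medium. The groups were 4 lines carrying HA-tagged HOXD9 set against 3 arrays of the HA vector, and 4 lines carrying V5-tagged HOXD13 set against 3 arrays of the V5 vector. All 14 arrays come from cells put through G418 selection, so the vector cells carry that treatment too. The promoter that drives each transgene is not given in the sources used here. The 4 lines of a HOX gene are 1 mixed population with 3 clones (a, b, c) taken out of it, so they share an origin. Values of lines are listed in that order, the mixed population first and then clones a, b and c. The vector arrays are labelled biological replicates, and the labels do not describe their cultures. The p-values thus measure only the spread among these arrays, which may be partly technical.

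Replication starts when the origin recognition complex, with CDC6 and CDT1, loads the MCM ring onto DNA in G1. Cyclin E kinase activity then helps CDC45 and the GINS complex join the ring and turn it into the active helicase, after which polymerase alpha with primase lays the primers that polymerases delta and epsilon extend around the PCNA clamp. Many of these genes are transcribed at the G1/S boundary by E2F factors, which RB holds back, and in HEK293 cells an adenoviral protein that binds RB is present. In bulk RNA, fewer cells in S phase and less RNA per cell cannot be told apart.

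Values are on the log2 scale of GCRMA, a method that corrects and summarises the probes of a set, so a difference of 1 is a doubling. The HA and V5 sets of arrays were normalized separately, and levels are compared only within a set. Both transgenes were detected where the labels put them. The HOXD9 probe set 205605_at read 6.65 to 7.76 in the HOXD9 lines, against 2.52 to 2.83 in the HA vectors, while the other HOXD9 probe set, 205604_at, read 4.33 to 4.54 in the lines, against 4.20 to 4.24 in the vectors. The HOXD13 probe set 207397_s_at read 12.24 to 12.59 in the HOXD13 lines, against 6.84 to 7.01 in the V5 vectors. Another HOXD13 probe set, 236681_at, read 10.15 to 10.42 in the HOXD13 mixed population and clones a and b and 8.87 in clone c, against 8.93 to 8.95 in the V5 vectors, so clone c was not above its vectors there. Of 10 listed HEK293 markers, 7 (NEFL, INA, VIM, KRT8, KRT18, SALL2 and TUBB3) stood above a value of 5 on all 14 arrays, PAX2 was dim, and NEFM and KRT19 lay near the array's floor. The mean log2 level over that list was 8.46 to 8.69 in the HOXD9 lines, 8.43 in each HA vector, 8.43 to 9.12 in the HOXD13 lines and 8.77 to 8.80 in the V5 vectors. No listed leukocyte marker (0 of 4), endothelial marker (0 of 3) or squamous marker (0 of 3) passed the filter, and COL1A1 alone of 6 fibroblast markers did. The HOX lines spread more than the vectors, with a median SD over the 40 genes of 0.17 in the HOXD9 lines (n = 4), 0.04 in the HA vectors (n = 3), 0.19 in the HOXD13 lines (n = 4) and 0.04 in the V5 vectors (n = 3). HOXD13 clone c stands apart: the 3′ minus 5′ signal of the ACTB control, which grows as RNA shortens from its 5′ end, was 2.80 in it, 1.82 to 2.13 in the other HOXD13 lines and 2.19 to 2.26 in the V5 vectors. For most HOXD13 values of the 40 genes that clone c decides, the value without it follows. It is not given for genes of the other lists.

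In the HOXD13 lines 3 replication genes fell and 1 rose. CDC45, which completes the helicase, fell by 0.74, POLA2, the accessory subunit of polymerase alpha, fell by 0.86, and POLD1, the catalytic subunit of polymerase delta, fell by 0.39. FEN1, the nuclease that trims Okazaki flaps, rose by 0.68, at the edge of the threshold and in 3 of the 4 lines. In the HOXD9 lines none of the 40 passed the test. The calls are from limma with Benjamini-Hochberg adjustment over all 10349 genes, at an adjusted p under 0.05. In simulated arrays with the spread of each group and few genes changed, by set sizes, 17% of the HOXD13 calls were genes left unchanged. That share depends on how many genes change and by how much, so it does not give the share of false calls here.

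The 4 calls in the HOXD13 lines are 10.0% of the 40 genes, and 10.6% of all genes tested were called in that contrast, 2.88% higher and 7.76% lower. The share among replication genes thus lies near the background. Their median difference was -0.07, against -0.03 over all genes, with 15 above 0 and 25 below. In the HOXD9 contrast limma called 0 of the 40 and 1 of all genes (0.00966%), while 10 of the 40 had an unadjusted p under 0.05, as did 23.5% of all genes (8 of the 40 and 27% of all genes in the HOXD13 contrast, and 7 and 26.5% for the difference of effects). The median over the replication genes was 0.02, against 0.08 over all genes, with 21 above 0 and 19 below. The difference between the HOXD9 effect and the HOXD13 effect was called for CDC45, POLA2, POLD1 and LIG1, all higher in the HOXD9 comparison, which is 10.0% of the list beside 9.63% of all genes (8.12% higher, 1.52% lower).

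Without clone c the HOXD13 contrast called 14 of the 40, of which 4 were higher and 10 lower. That is 35.0% of the list, and the same fit called 35.8% of all genes. The 4 genes called with clone c were among the 14, and MCM5, ORC1 and GINS3 (higher) and MCM6, POLA1, PRIM1, RFC4, LIG1, TYMS and RRM1 (lower) joined them. Leaving out clone c also changed the HOXD9 contrast, through the spread that all arrays share: 6 genes (CDC45, POLD1, POLE, ORC1, MCM5 and E2F1), all higher, were then called, beside 10.6% of all genes. Without HOXD9 clone b, CDC45 and POLE were called in the HOXD9 contrast, beside 8.5% of all genes. In the other direction, leaving out the HOXD13 mixed population, HOXD13 clone a or any 1 of the 6 vector arrays left CDC45 and POLA2 as the 2 HOXD13 calls, with 2.93% to 7.36% of all genes called.

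**Figure D1:**
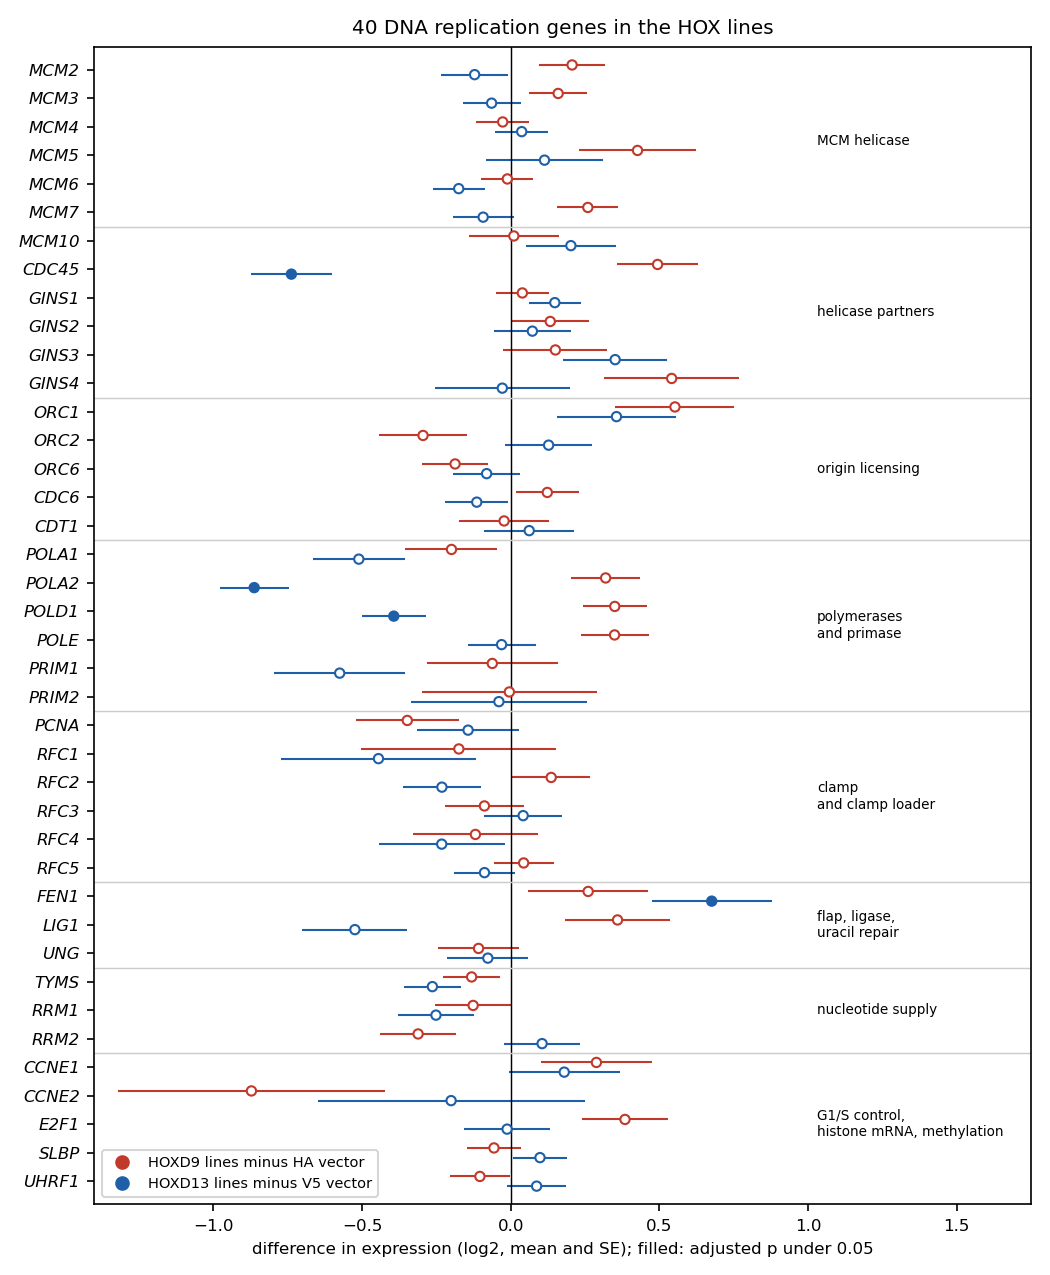
Difference in log2 expression of the 40 genes, HOXD9 lines minus HA vector (red) and HOXD13 lines minus V5 vector (blue), as the fitted mean with its SE. Filled points passed at an adjusted p under 0.05: CDC45, POLA2 and POLD1 lie left of 0 and FEN1 right of it in the HOXD13 comparison, and no HOXD9 point is filled.

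The MCM helicase, whose 6 subunits MCM2 to MCM7 form the ring that opens the double helix, held no called gene in either contrast over all 14 arrays. MCM2 read 12.46, 12.65, 12.47 and 12.64 in the HOXD9 lines, against 12.32, 12.37 and 12.35 in the HA vectors. All 4 HOXD9 lines lay above the vectors, by a fitted 0.21 (SE 0.11, adjusted p = 0.260). In the HOXD13 lines MCM2 read 12.76, 12.78, 12.80 and 12.38, against 12.79, 12.83 and 12.79 in the V5 vectors. The first 3 lines sat at the vector level and clone c below it, and the difference of -0.12 (SE 0.11, adjusted p = 0.531) did not pass and was -0.02 without clone c. MCM5 had the largest HOXD9 difference of the ring, 0.43 (adjusted p = 0.210), with means of 10.65 ± 0.09 in the HOXD9 lines (SD, n = 4) and 10.22 ± 0.04 in the HA vectors (n = 3). In the HOXD13 set MCM5 split: 11.42, 11.44 and 11.62 in the mixed population and clones a and b, 10.54 in clone c, and 11.11 to 11.19 in the V5 vectors. Its difference there was 0.11 (adjusted p = 0.763), and 0.35 (adjusted p = 0.00837) without clone c. MCM6 was the member with all 4 HOXD13 lines below their vectors, at 12.63 to 12.91 against 12.93 on all 3. Clone c, at 12.91, was only just below. The difference of -0.17 (adjusted p = 0.218) passed without clone c (-0.23, adjusted p = 0.0292). On 238977_at, another MCM6 probe set, HOXD13 lines and vectors overlapped, with a difference of -0.46 and an SD of 0.54 in the lines. On the chosen probe sets MCM3, MCM4 and MCM7 differed by -0.03 to 0.26 in the HOXD9 comparison. In the HOXD13 comparison they differed by -0.09 to 0.04. Other MCM4 probe sets disagreed in the HOXD9 comparison, at 0.12 on 212141_at, 0.25 on 222037_at and -0.32 on 212142_at. All 4 HOXD9 lines lay above the vectors on 222037_at. In the HOXD13 comparison these probe sets read 0.07, -0.05 and 0.14, and all 4 HOXD13 lines lay above the vectors on 212142_at. Of 6 MCM ring genes, 4 (MCM2, MCM3, MCM5 and MCM7) had all HOXD9 lines above the vectors, as did 22.4% of all genes.

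Among the helicase partners CDC45 was the called gene. It read 7.41, 7.58, 7.40 and 7.64 in the HOXD13 lines, against 8.26, 8.18 and 8.29 in the V5 vectors. Every HOXD13 line, clone c included, lay below every vector array. The difference was -0.74 (SE 0.14, adjusted p = 0.00593), which puts the lines at 60.0% of the vector level. In the HOXD9 set CDC45 read 7.90, 8.24, 7.59 and 8.09 in the lines, against 7.47, 7.45 and 7.47 in the HA vectors. All 4 lines were above the vectors, but by 0.13 to 0.77 and with an adjusted p of 0.147 for the mean difference of 0.49 (SE 0.14). The difference between these effects was 1.23 (SE 0.19, adjusted p = 0.00358). One probe set reads CDC45 here. Its promoter, from RefSeq on GRCh38.p14, is shown because the gene fell in all 4 HOXD13 lines. The window chr22:19479670-19479969 on the + strand runs from 250 bases before the gene's start to 50 after it, and capitals mark the letters TTTGGCGG, a G-ended form of the E2F motif at position -25, where -1 is the base before the start. This form was added to the search after the sequences were seen, and the window holds none of the E2F forms first searched.
CDC45: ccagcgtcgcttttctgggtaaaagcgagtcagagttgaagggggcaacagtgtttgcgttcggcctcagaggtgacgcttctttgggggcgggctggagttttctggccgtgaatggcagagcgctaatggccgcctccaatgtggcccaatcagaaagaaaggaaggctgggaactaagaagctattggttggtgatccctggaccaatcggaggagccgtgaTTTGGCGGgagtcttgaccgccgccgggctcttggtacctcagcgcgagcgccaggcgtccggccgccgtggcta

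The other partners did not pass over all 14 arrays. MCM10, which helps switch the helicase on, had differences of 0.01 in the HOXD9 comparison and 0.20 in the HOXD13 comparison, and its other probe sets, 222962_s_at and 223570_at, both read -0.15 in the HOXD9 comparison. In the HOXD13 comparison these probe sets read 0.11 and 0.10, and all 4 HOXD13 lines lay above the vectors on 223570_at. The GINS complex has 4 subunits. GINS4 read 6.33, 7.01, 6.10 and 6.82 in the HOXD9 lines, against 5.87, 5.98 and 6.22 in the HA vectors. Clones a and c were well above the vectors while clone b lay inside their range, and the difference of 0.54 (SE 0.23) had an adjusted p of 0.186 (0.19, adjusted p = 0.896, without clones a and c). GINS3 read 9.87, 10.20, 10.02 and 9.23 in the HOXD13 lines, against 9.49, 9.47 and 9.46 in the V5 vectors. Clone c was below the vectors and the other lines were above, with a mean difference of 0.35 (SE 0.18, adjusted p = 0.218). Without clone c it was 0.55 and passed (adjusted p = 0.000884). GINS1 had all 4 HOXD13 lines above the vectors, 11.70 to 11.83 against 11.59 to 11.65, by 0.15 (adjusted p = 0.305). GINS2 differed by 0.13 in the HOXD9 comparison and 0.07 in the HOXD13 comparison (0.20 without clone c, adjusted p = 0.104). The second GINS4 probe set, 1554356_at, read 0.62 in the HOXD13 comparison (adjusted p = 0.100 over probe sets), opposite in sign to the -0.03 of the chosen one, which was 0.14 without clone c.

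Origin licensing, the loading of MCM rings by ORC, CDC6 and CDT1, held no call over all 14 arrays. ORC1, the largest subunit of the origin recognition complex, had the largest positive HOXD9 difference of the list, without passing. Its values were 7.02, 7.27, 6.87 and 7.44 in the HOXD9 lines, against 6.65, 6.58 and 6.56 in the HA vectors. The lines were all above, by 0.55 (SE 0.20, adjusted p = 0.158). In the HOXD13 set ORC1 read 7.64, 8.04, 8.05 and 7.14 in the lines, against 7.38, 7.29 and 7.42 in the V5 vectors. Clone c again lay below the vectors and its sister lines above, with a mean difference of 0.36 (SE 0.20, adjusted p = 0.276). Without clone c it was 0.55 and passed (adjusted p = 0.0122). ORC2 differed by -0.29 in the HOXD9 comparison (adjusted p = 0.233) and 0.13 in the HOXD13 comparison. ORC6 had all 4 HOXD9 lines below the vectors, 10.48 to 10.68 against 10.80 to 10.82, by -0.19 (adjusted p = 0.295). CDC6 and CDT1 stayed between -0.11 and 0.12 in both comparisons, though CDT1 was 0.21 (adjusted p = 0.169) in the HOXD13 comparison without clone c. For CDT1 the probe sets differed in the HOXD9 comparison, at -0.02 for the chosen one and 0.35 for 209832_s_at (adjusted p = 0.279).

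All 6 polymerase and primase genes had a negative difference in the HOXD13 lines, with a median of -0.45, where 54.2% of all genes were below 0. Of the 6, 2 passed, beside 7.76% of all genes called lower. PRIM2 (-0.04) and POLE (-0.03) were close to 0, and POLE turned to 0.03 without clone c. The block is 1 of several roles, and over all 40 genes 7.5% were called lower. Of 9 other polymerase and single-strand binding subunits, 3 were above 0 and 6 below, with 0 called. POLA2 read 8.61, 8.94, 8.81 and 9.04 in the HOXD13 lines, against 9.76, 9.74 and 9.64 in the V5 vectors. The lines and the vectors did not overlap, and the mixed population was the lowest. The difference of -0.86 (SE 0.12, adjusted p = 0.00125) puts the lines at 55.0% of the vector level. In the HOXD9 set POLA2 read 9.23, 9.44, 9.31 and 9.56 in the lines, against 9.04, 9.12 and 9.04 in the HA vectors. Here every line was above every vector, by a mean of 0.32 (SE 0.12, adjusted p = 0.160), and the effects differed by 1.18 (SE 0.16, adjusted p = 0.00201).

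POLD1 read 9.32, 9.35, 9.54 and 9.39 in the HOXD13 lines, against 9.73, 9.79 and 9.86 in the V5 vectors. The groups did not overlap, and the fall was 0.39 on the log2 scale (SE 0.11, adjusted p = 0.0346), to 76.1% of the vector level. In the HOXD9 set it read 9.25, 9.38, 9.29 and 9.61 in the lines, against 9.15, 8.99 and 8.95 in the HA vectors. All 4 lines were above, by 0.35 (SE 0.11, adjusted p = 0.147), and the effects differed by 0.74 (SE 0.15, adjusted p = 0.0111). The HOXD13 call of POLD1 was lost in 10 of 24 alternative fits, among them the fit without the mixed populations and each fit that left out a vector array or HOXD13 clone a (adjusted p up to 0.148). POLA2 and CDC45 kept their HOXD13 calls in all 24.

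The promoters of POLA2 and POLD1, from RefSeq on GRCh38.p14, are shown because both genes fell in every HOXD13 line, and they differ in E2F-type letters. The POLA2 window is chr11:65261712-65262011 and the POLD1 window chr19:50384073-50384372, both on the + strand, from 250 bases before the gene's start to 50 after it. Capitals mark TTTCGCGC at position -53 and the G-ended form TTTGGCGG at position -24 of POLA2. No searched E2F letters occur in the POLD1 window.
POLA2: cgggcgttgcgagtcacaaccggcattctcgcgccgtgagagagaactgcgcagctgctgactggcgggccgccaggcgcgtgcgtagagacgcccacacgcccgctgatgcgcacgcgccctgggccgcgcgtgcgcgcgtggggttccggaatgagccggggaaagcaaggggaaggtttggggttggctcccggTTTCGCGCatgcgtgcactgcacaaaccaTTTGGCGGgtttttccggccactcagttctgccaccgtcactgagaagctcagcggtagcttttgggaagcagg
POLD1: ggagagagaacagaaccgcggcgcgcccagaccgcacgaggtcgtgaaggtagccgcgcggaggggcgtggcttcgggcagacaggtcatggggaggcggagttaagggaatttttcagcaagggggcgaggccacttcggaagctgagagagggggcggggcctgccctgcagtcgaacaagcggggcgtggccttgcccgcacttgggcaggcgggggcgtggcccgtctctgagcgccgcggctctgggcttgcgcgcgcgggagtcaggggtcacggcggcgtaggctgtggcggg

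Of the remaining polymerase genes, PRIM1, the catalytic subunit of primase, read 9.99, 9.55, 9.51 and 10.31 in the HOXD13 lines, against 10.40, 10.42 and 10.43 in the V5 vectors. All lines were below the vectors, clones a and b by the most and clone c by the least, and the mean difference of -0.58 (SE 0.22) had an adjusted p of 0.112 (-0.73, adjusted p = 0.0141, without clone c). POLA1, the catalytic subunit of polymerase alpha, showed the same order of lines, at 10.20, 9.88, 9.71 and 10.36 against 10.59, 10.53 and 10.52 in the V5 vectors, and its difference of -0.51 missed the threshold (SE 0.15, adjusted p = 0.0518) and passed without clone c (-0.62, adjusted p = 0.00423). PRIM2, the large primase subunit, was -0.04 in the HOXD13 comparison. In the HOXD9 lines PRIM2 ranged from 6.04 in clone a to 7.80 in clone c, against 7.06 to 7.22 in the HA vectors, so that its mean difference was close to 0. POLE, the catalytic subunit of polymerase epsilon, differed by 0.35 in the HOXD9 comparison (adjusted p = 0.147) with all 4 lines above the vectors, and by -0.03 in the HOXD13 comparison, which turned to 0.03 without clone c.

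**Figure D2:**
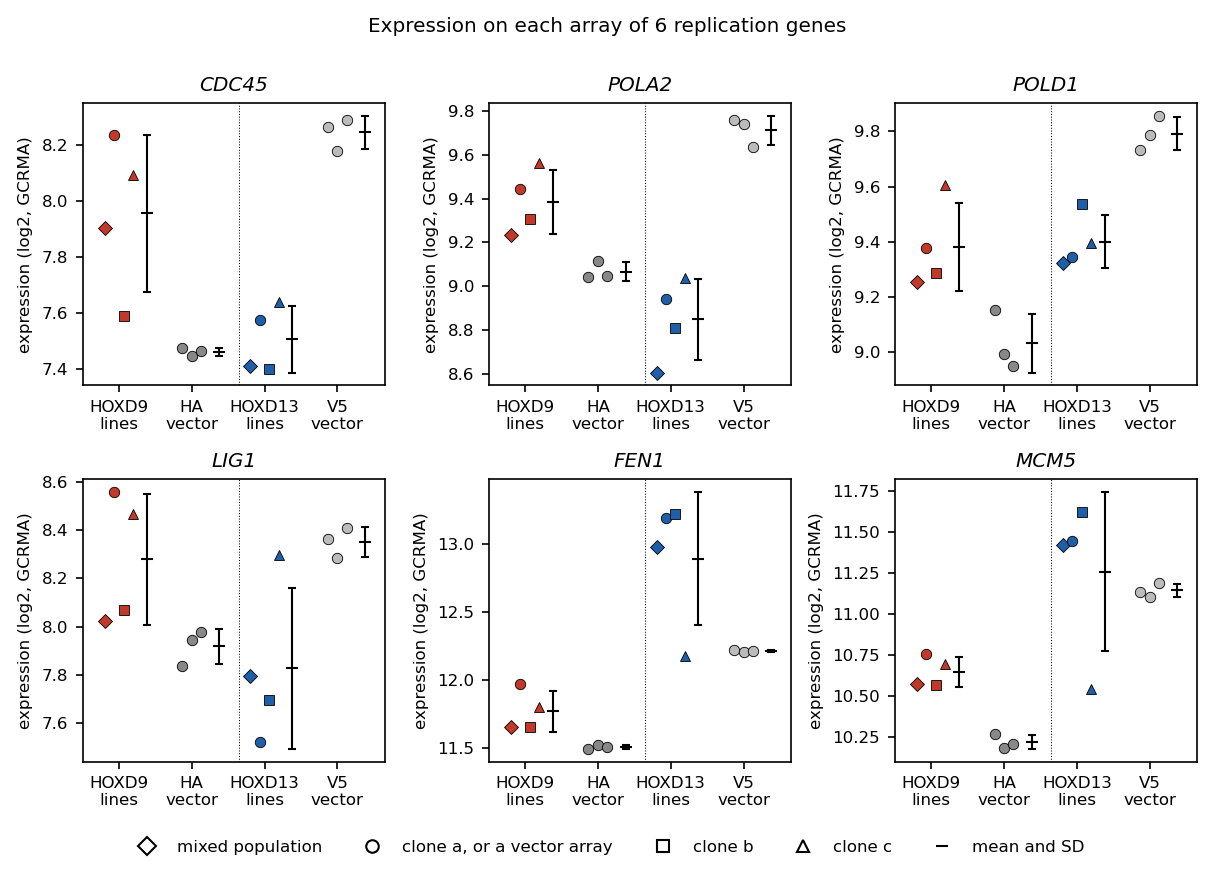
Log2 expression on each array of CDC45, POLA2, POLD1, LIG1, FEN1 and MCM5, by group, with each HOX line group left of the vector of its tag; bars are the mean and SD, and marks tell the mixed population and clones apart. CDC45, POLA2 and POLD1 lie wholly below the V5 vectors in the HOXD13 lines, while HOXD13 clone c (triangle) lies away from its sister lines for LIG1, FEN1 and MCM5.

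The clamp and its loader held no call in either contrast over all 14 arrays. PCNA, the ring that tethers the polymerases, read 13.26, 12.55, 13.24 and 12.95 in the HOXD9 lines, against 13.39, 13.35 and 13.30 in the HA vectors. Each of the 4 lines was below the vectors, clone a by the most, but the mean difference of -0.35 (SE 0.17, adjusted p = 0.232) did not pass. It was -0.20 without clone a and -0.10 without clones a and c (adjusted p = 0.921). In the HOXD13 set PCNA read 13.47, 13.70, 13.57 and 14.08 in the lines, against 13.87, 13.87 and 13.80 in the V5 vectors. Clone c was above the vectors and its sister lines below, leaving a mean of -0.14 (SE 0.17, adjusted p = 0.650), or -0.27 without clone c (adjusted p = 0.202). Among the loader subunits RFC2 had all 4 HOXD13 lines below the vectors, 11.13 to 11.47 against 11.54 to 11.62, by -0.23 (adjusted p = 0.280). RFC4 spread widely over the HOXD13 lines, at 11.29, 10.86, 10.83 and 11.94 in the lines, against 11.44, 11.48 and 11.47 in the V5 vectors. Its difference was -0.23 (adjusted p = 0.523), and -0.47 (adjusted p = 0.0108) without clone c. RFC1 spread as widely in both HOX groups, from 7.52 to 9.21 in the HOXD9 lines, against 8.60 to 8.75 in the HA vectors, and from 8.97 to 10.17 in the HOXD13 lines, against 9.95 to 10.02 in the V5 vectors. On the chosen probe sets RFC3 and RFC5 stayed between -0.09 and 0.04 in both comparisons. Other RFC5 probe sets disagreed in the HOXD9 comparison, at 0.22 on 203210_s_at and -0.31 on 213734_at. In the HOXD13 comparison these RFC5 probe sets read -0.17 and 0.04, and all 4 HOXD13 lines lay below the vectors on 203210_s_at. Neither passed in either comparison.

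Okazaki fragment maturation, in which FEN1 trims the flap and LIG1 seals the nick, held 1 call. FEN1 read 12.98, 13.19, 13.22 and 12.18 in the HOXD13 lines, against 12.23, 12.21 and 12.22 in the V5 vectors. The first 3 lines were above the vectors and clone c was just below them. The rise was 0.68 (SE 0.20, adjusted p = 0.050, just under the threshold), or 1.60-fold, and the second FEN1 probe set, 204768_s_at, read 0.78 without passing among probe sets (adjusted p = 0.059). Without clone c the FEN1 difference was 0.92 (adjusted p = 3.88e-05), and the call was lost in 15 of 24 alternative fits (adjusted p up to 0.151). In the HOXD9 set FEN1 read 11.65, 11.97, 11.65 and 11.80 in the lines, against 11.50, 11.53 and 11.51 in the HA vectors. All 4 lines were above, by 0.26 (SE 0.20, adjusted p = 0.399).

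LIG1, the ligase that seals the trimmed fragments, read 7.79, 7.52, 7.70 and 8.30 in the HOXD13 lines, against 8.36, 8.29 and 8.41 in the V5 vectors. The mixed population and clones a and b were below the vectors and clone c lay within their range. The mean difference of -0.52 (SE 0.18) had an adjusted p of 0.0758, and without clone c LIG1 passed at -0.68 (adjusted p = 0.00252). In the HOXD9 lines it read 8.02, 8.56, 8.07 and 8.46, against 7.84, 7.94 and 7.98 in the HA vectors, a difference of 0.36 (SE 0.18, adjusted p = 0.228) with all 4 lines above. The difference of effects, 0.88 (SE 0.25, adjusted p = 0.0424), passed, and it was lost in 15 of 23 alternative fits (adjusted p up to 0.115). UNG, which removes uracil from DNA, was -0.11 in the HOXD9 comparison and -0.08 in the HOXD13 comparison.

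On their chosen probe sets the 3 genes of nucleotide supply had negative differences in the HOXD9 lines, and none passed. Their second probe sets all read near 0 in that comparison. RRM2, the small subunit of ribonucleotide reductase, read 12.62, 12.32, 12.65 and 12.17 in the HOXD9 lines, against 12.72, 12.76 and 12.77 in the HA vectors. Every line was below, by a mean of -0.31 (SE 0.13, adjusted p = 0.180), while its second probe set, 209773_s_at, read 0.04. RRM1, the large subunit, also had all 4 HOXD9 lines below the vectors, by -0.13 (adjusted p = 0.510). Its second probe set, 201476_s_at, read 0.02, with lines and vectors overlapping. TYMS, which makes thymidylate, was -0.13 in the HOXD9 comparison, and -0.01 on its second probe set, 1554696_s_at. TYMS had all 4 HOXD13 lines below the vectors, 13.69 to 13.96 against 14.08 to 14.10, by -0.26 (SE 0.10, adjusted p = 0.0989), and passed without clone c (-0.31, adjusted p = 0.0193). In the HOXD13 comparison RRM1 was -0.25 (adjusted p = 0.230), with clone c at 13.38 above the vectors at 13.20 to 13.27, and without clone c it passed at -0.38 (adjusted p = 0.00281). The second RRM1 probe set read -0.53 there (adjusted p = 0.062 over probe sets), with all 4 lines, clone c included, below the vectors. RRM2 was 0.11 there, and 0.17 without clone c (adjusted p = 0.302). On 209773_s_at RRM2 read 0.38 in the HOXD13 comparison (adjusted p = 0.208 over probe sets), with lines and vectors overlapping.

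G1/S control, histone mRNA and maintenance methylation held no call over all 14 arrays. E2F1, an activator of many genes of the list, read 6.98, 6.95, 6.89 and 7.30 in the HOXD9 lines, against 6.59, 6.71 and 6.63 in the HA vectors. All 4 lines were above, by 0.38 (SE 0.14, adjusted p = 0.164). In the HOXD13 set E2F1 read 7.39, 7.41, 7.40 and 6.84 in the lines, against 7.24, 7.31 and 7.26 in the V5 vectors. Clone c lay below and its sisters above, so the mean of -0.01 (adjusted p = 0.974) has no settled direction, and it was 0.13 without clone c (adjusted p = 0.366).

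Cyclin E drives entry into S phase and has a pair of genes. CCNE2 had the widest spread of the list, at 8.60, 6.84, 8.98 and 7.46 in the HOXD9 lines, against 8.82, 8.90 and 8.81 in the HA vectors. Clones a and c were far below the vectors, the mixed population slightly below and clone b above, and the mean difference of -0.87 had an SE of 0.45 (adjusted p = 0.244). It was -0.50 without clone a (adjusted p = 0.440) and -0.05 without clones a and c (adjusted p = 0.982). Its second probe set, 211814_s_at, read -0.27. CCNE1 had all 4 HOXD9 lines above the vectors, by 0.29 (adjusted p = 0.326). SLBP, which binds histone mRNA, was -0.06 in the HOXD9 comparison and 0.10 in the HOXD13 comparison. UHRF1, which brings the maintenance methyltransferase to new DNA, had all 4 HOXD13 lines just above the vectors, 13.05 to 13.23 against 12.98 to 13.04, by 0.09 (adjusted p = 0.629).

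Counting lines without a test, all 4 HOXD9 lines lay above all 3 HA vectors for 13 of the 40 genes and below them for 4, together 42.5% of the list, while 36.6% of all genes were separated in this way (22.4% above and 14.1% below). All 4 HOXD13 lines lay above the V5 vectors for 2 genes (GINS1 and UHRF1) and below them for 8 (MCM6, CDC45, POLA1, POLA2, POLD1, PRIM1, RFC2 and TYMS), together 25.0% of the list, while the share over all genes was 28.9% (8.59% above and 20.3% below). Both shares, read on the chosen probe sets, stand near those of all genes. The list holds more separated genes below than above in the HOXD13 set and the reverse in the HOXD9 set, as do all genes.

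**Figure D3:**
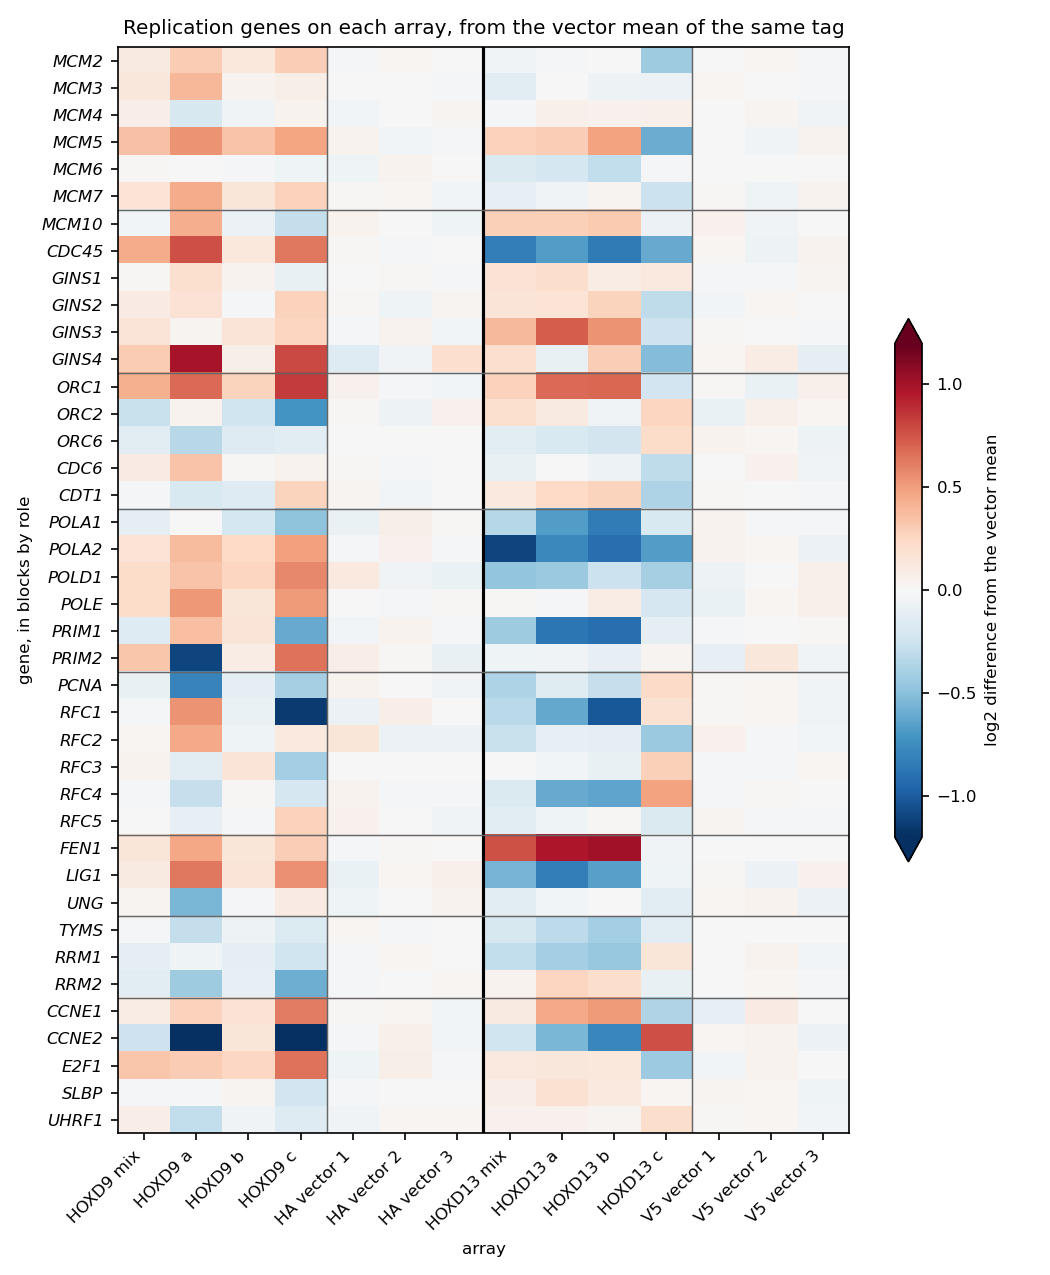
Log2 difference of each array from the mean of the vectors of its own tag, for the 40 genes in rows grouped by role; red is above the vector mean and blue below, and colours are capped at 1.2 in either direction. HOXD13 clone c differs from its sister lines for many genes, as HOXD9 clones a and c do from the mixed population and clone b, and the vector columns are pale.

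The lines of each HOX gene also differed among themselves. HOXD13 clone c was the highest or lowest of the 4 lines for 37 of the 40 genes, and for 88.5% of all genes. For 10 genes (MCM5, MCM10, GINS2, GINS3, ORC1, CDT1, FEN1, RRM2, CCNE1 and E2F1) the mixed population and clones a and b were all above the vectors with clone c below them, a pattern that 20.4% of all genes showed. For 6 genes (ORC6, PCNA, RFC1, RFC4, RRM1 and CCNE2) it was reversed, as for 12.5% of all genes. Both patterns are read on the chosen probe sets. MCM10 had all 4 lines above the vectors on 223570_at, and RRM1 had all 4 below them on 201476_s_at. The ACTB 3′ minus 5′ difference was highest in clone c, at 2.80. It was 2.13 in the mixed population, against 2.19 to 2.26 in the V5 vectors. The same difference of the GAPDH control was also highest in clone c, at 0.86. It was 0.53 to 0.57 in the other HOXD13 lines and 0.68 to 0.72 in the V5 vectors. Whether RNA quality bears on the split between clone c and its sister lines was not tested. With the ACTB difference as a covariate the HOXD13 contrast called 8 of the 40, 1 higher and 7 lower (20.0%), beside 25.1% of all genes.

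HOXD9 clones a and c stood off from the mixed population and clone b. Both clones were above both other lines for 14 of the 40 genes and below them for 7, while the shares over all genes were 37.3% and 22%. Differences from the vector mean of over 0.5 occurred in clone a for 7 genes upward and 4 downward and in clone c for 9 upward and 5 downward, and in the mixed population and clone b for 0. These are 27.5% of the list in clone a and 35.0% in clone c, where 29.1% and 53.4% of all genes passed the same cut. Over the HOXD13 lines the same count was 1 upward and 3 downward in the mixed population, 3 and 8 in clone a, 4 and 8 in clone b, and 1 and 4 in clone c. The shares of the list, 10.0%, 27.5%, 30.0% and 12.5%, were below those of all genes, 22.0%, 30.1%, 35.8% and 26.2%. The largest gap between the HOXD9 pairs was that of CCNE2, -1.64 for clones a and c minus the other lines. HOXD9 clone a had the lowest ACTB 3′ minus 5′ difference of its set, 1.70. The other HOXD9 lines read 2.10 to 2.35 and the HA vectors 2.29 to 2.37. The same difference of the GAPDH control did not set clone a apart, at 0.64, against 0.61 to 0.64 in the other HOXD9 lines. With the ACTB difference as a covariate the HOXD9 comparison gave -0.40 for CCNE2, -0.19 for PCNA, 0.34 for GINS4 and 0.12 for MCM2. Each was smaller in size than without the covariate, and CDC45 was 0.47. Values for ORC1, RRM2 and E2F1 are not given here. The covariate had the same slope on all 14 arrays, HOXD13 clone c included. Whether RNA quality bears on these differences was not tested.

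Of the 40 genes 21 had at least 1 further probe set that passed the filter, 25 in all. These had the sign of the chosen probe set in 17 cases and the opposite sign in 8 in the HOXD9 comparison, and 20 and 5 in the HOXD13 comparison. None of the 25 was called in either, where 0.0303% and 8.68% of all probe sets tested were called. CDC45, POLA2, POLD1 and LIG1 are each read by 1 passing probe set, so no second reading of them is at hand.

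Other genes of replication, from a list made for this purpose, were counted in the same way. Of 67 such genes 63 were tested, and in the HOXD13 lines 7 fell and 0 rose, which is 11.1% beside 10.6% of all genes, with a median difference of -0.11. ASF1B, a histone chaperone that works at the fork, read 9.14, 9.25, 9.10 and 9.44 in the HOXD13 lines, against 9.88, 9.96 and 10.05 in the V5 vectors. It fell by 0.73 (SE 0.11, adjusted p = 0.00251), with no overlap. TIMELESS, of the fork protection complex, fell by 0.69 (adjusted p = 0.0153), to 9.22 to 9.83 in the lines against 10.06 to 10.17 in the vectors. IMPDH2, a rate-limiting enzyme of guanine nucleotide synthesis, fell by 0.50 (adjusted p = 0.00732). ORC5, a subunit of the origin recognition complex, fell by 0.39 (adjusted p = 0.0305). Of the E2F family, E2F2 (an activator) fell by 0.47 (adjusted p = 0.0166), E2F5 (a repressor that pairs with pocket proteins) by 0.69 (adjusted p = 0.0163) and E2F7 (an atypical repressor) by 0.48 (adjusted p = 0.0397). For each of these 7, which were picked as called, every HOXD13 line lay below every V5 vector, and over the 63 this held for 13 (20.6%), beside 20.3% of all genes.

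In the HOXD9 lines 0 of the 63 were called by limma. ASF1B, TIMELESS, IMPDH2 and E2F2 had all 4 HOXD9 lines above the HA vectors, by 0.36, 0.28, 0.22 and 0.29. Their differences of effects passed, as did that of DTYMK, the thymidylate kinase (0.55, adjusted p = 0.0391), together 7.94% of the 63 beside 9.63% of all genes. The 2 largest differences of this list in the HOXD9 comparison belonged to RB1, the E2F restrainer, at -1.07 (adjusted p = 0.163), and DCK, deoxycytidine kinase, at -0.99 (adjusted p = 0.169), with clones a and c the lowest lines for both. RB1 read 9.08, 7.52, 9.23 and 8.17 in the HOXD9 lines, against 9.60, 9.51 and 9.61 in the HA vectors. In the HOXD13 comparison they were RNASEH2B, a subunit of the nuclease that removes RNA from DNA, at -1.10 (adjusted p = 0.0990), and POLE2, the second subunit of polymerase epsilon, at -0.84 (adjusted p = 0.0515), with clone c at the vector level in POLE2 and above it in RNASEH2B.

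**Figure D4:**
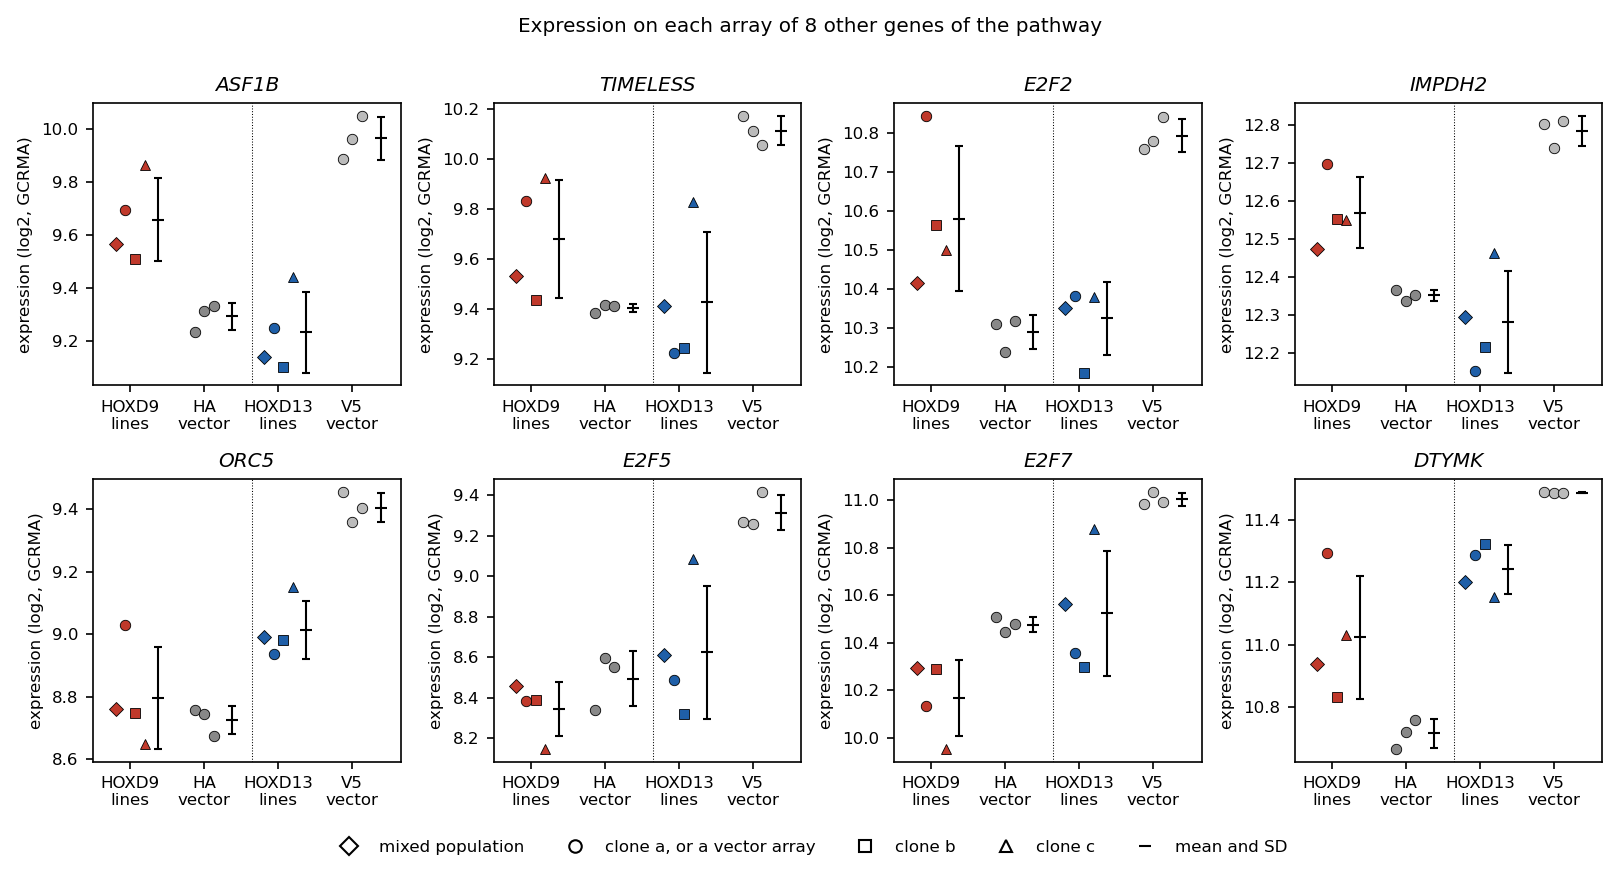
Log2 expression on each array of ASF1B, TIMELESS, E2F2, IMPDH2, ORC5, E2F5, E2F7 and DTYMK, by group, with each HOX line group left of the vector of its tag; bars are the mean and SD. In each panel all 4 HOXD13 lines lie below the 3 V5 vectors.

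Genes of G2 and mitosis, set beside the replication genes, were also mostly uncalled. Of 23 tested, 1 rose and 1 fell in the HOXD13 lines and 0 were called in the HOXD9 lines. That is 8.7% in the HOXD13 contrast, beside 10.6% of all genes. MKI67, the Ki-67 proliferation antigen, rose by 1.29 (SE 0.23, adjusted p = 0.00493), at 11.16, 11.35, 11.28 and 10.39 in the lines, against 9.66, 9.71 and 9.89 in the V5 vectors. CCNB2, a cyclin of mitotic entry, fell by 0.48 (SE 0.11, adjusted p = 0.0159). The median over the 23 was -0.05 in the HOXD13 comparison and 0.13 in the HOXD9 comparison, beside -0.03 and 0.08 over all genes.

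The promoters of the list were searched for motifs. The genes were not chosen by motif, but many are transcribed by E2F factors, so their share of E2F motifs is not independent of the choice. The RefSeq table held a window of 300 bases for 36 of the 40 genes (MCM4, MCM5, GINS4 and CCNE2 are the others). An E2F-type motif (TTTCCCGC, TTTGGCGC, TTTCGCGC or TTTGCCGC, either strand) occurred in 18 of the 36, and in 5.67% of 8617 windows of genes tested. Counting matches on both strands, which can overlap, MCM6 held 4 such motifs and MCM2, MCM3, MCM7 and E2F1 held 2 each. The forms that end in G (TTTCCCGG, TTTGGCGG, TTTCGCGG or TTTGCCGG), searched after the sequences were seen, occurred in 8 of the 36 (22.2%), against 5.18% of the tested genes' windows. The NF-Y motif CCAAT occurred in 61.1% of the 36, against 37.4%, and 4 times in CDC45. The CHR motif TTTGAA, known from promoters of mitotic genes, occurred in 2.78%, against 9.57%. The posterior HOX motif (TTTATNG or CAATAAA) occurred in PRIM2 alone of the 36 (2.78%), against 5.69%. These letters are a description of the windows, and the genes that fell in the HOXD13 lines do not share one: POLA2 holds E2F-type letters, CDC45 only a G-ended form, and POLD1 holds none of the motifs searched.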

How the data were processed

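The deposited values are log2 expression values per probe set, made by the authors with GCRMA per the submitters' processing notes, version not given in the sources used here. Sorted values matched between arrays within the HA set (to 0.00102) and within the V5 set (to 0.00195) but not between the sets, so the sets were normalized separately. Of 54675 probe sets, 41097 carried 1 gene symbol, 1801 several and 11777 none in the platform annotation (2016), and 41043 symbols were matched to RefSeq GRCh38.p14. Probe sets reading at least 5 on at least 3 arrays were kept (19816), with the brightest on average standing for its gene, which left 10349 genes.

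limma 3.58.1 in R 4.3.3 fitted 4 group means over all 14 arrays (lmFit, eBayes), and p-values were two-sided with Benjamini-Hochberg adjustment. The fit was tested on simulated data with independent noise on each array. Of 10349 genes, 67 were changed by 0.5, 67 by 1 and 66 by 2. The real arrays differ in the number and size of changes and hold related lines, so the shares below are those of the simulation only. Where lines spread more than vectors, as here, its calls there held a larger share of unchanged genes than the threshold sets. That share was 17.8% of HOXD9 calls and 17% of HOXD13 calls with each group's own spread. With equal spread it was 5.26% and 4.76%. Other filters, probe set rules, scalings, weights, priors, an ACTB covariate and left-out arrays were tried. The 40 genes and the other lists were chosen with earlier results of these data known, so no list is independent support. Array values were given for called genes, for the 3 largest differences each way in each comparison, and for PCNA, MCM2 and E2F1, and other genes were summarised, except that array values of MCM5, POLA1, RFC4 and RB1 were added after they were seen. Promoter windows and their motifs were read from RefSeq sequence with Python 3.11.15, and figures were drawn with matplotlib 3.10.9. The number of arrays limits the precision.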

Additional observations from a re-analysis of the deposited data

Results flagged for a closer look

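For 4 genes the HOXD9 effect and the HOXD13 effect differed by limma's test of the difference (Benjamini-Hochberg adjusted), which is 10.0% of the 40 beside 9.63% of all genes. The difference of effects was 1.23 for CDC45 (adjusted p = 0.00358), 1.18 for POLA2 (adjusted p = 0.00201), 0.74 for POLD1 (adjusted p = 0.0111) and 0.88 for LIG1 (adjusted p = 0.0424), with all 4 HOXD9 lines above their vectors for each. All 4 HOXD13 lines were below theirs for CDC45, POLA2 and POLD1, and 3 of 4 for LIG1. The tags, their vectors and the array sets differ together with the HOX gene, so these cannot be told apart in this test.

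For 5 genes 1 line lay far from the other lines of its HOX gene. HOXD13 clone c was the lowest for MCM2 (12.38, with the others at 12.76 to 12.80), MCM10 (10.36, with the others at 10.71 to 10.74) and E2F1 (6.84, with the others at 7.39 to 7.41), and the highest for UHRF1 (13.23, with the others at 13.05 to 13.07). HOXD9 clone a was the lowest for ORC6 (10.48, with the others at 10.66 to 10.68). On 223570_at, another MCM10 probe set, all 4 HOXD13 lines lay above the vectors with an SD of 0.04, against 0.18 on the chosen one. These are 5 of 80 groups of 4 lines (6.25%), 4 of them in the HOXD13 lines and 1 in the HOXD9 lines. Chance alone flags about 1 in 20 groups when all 4 lines vary alike. HOXD13 clone c did not vary like its sister lines, as it was the highest or lowest line for 88.5% of all genes. The share of all genes with 1 line this far off was not computed. Whether the 5 exceed the background is therefore left undecided.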

How the results depend on the processing

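CDC45 and POLA2 kept their HOXD13 calls in all 24 alternatives (adjusted p up to 0.0396 and 0.0123), with differences of -0.78 to -0.70 and -0.93 to -0.78. Their differences of effects, and that of POLD1, passed in all 23 that applied. POLD1 kept its HOXD13 call in 14 of 24, FEN1 in 9 of 24, and LIG1 its difference of effects in 8 of 23. The count of HOXD13 calls among the 40 was 8 with the ACTB covariate (2596 of all genes), 8 without HOXD9 clones a and c (2448), 2 without the mixed populations (429), 2 to 14 leaving out 1 array at a time (303 to 3701), and 3 to 6 under the others, with the genes called in all reaching 1690 with array weights. The HOXD9 count was 0 to 6 leaving out 1 array and 0 by limma under the others, where the ACTB covariate called 50 of all genes, and its median lay between 0.0066 and 0.0977 leaving out 1 array. The count for the difference of effects was 3 to 6 (384 to 2299 of all genes). E2F1 in the HOXD13 comparison lay between -0.061 and 0.13 leaving out 1 array and turned sign, to 0.0078 with centred arrays, 0.13 without clone c and 0.0073 without V5 vector 2; the cause was not tested. No paired analysis was possible because the HOX lines are a mixed population and clones a to c, the vectors are numbered 1 to 3, and no number is shared. With 3 vectors and 4 related lines a group, small differences can be missed.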
